A study of Mus musculus with 25 samples.

Results

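RNA from sperm of male mice fed a low-protein diet (LPD) was set against RNA from sperm of males fed a control diet (CD). The 10 libraries used here, 5 LPD and 5 CD, were picked by the diet in each sample's title from 25 libraries of 5 diets, each library being made from 1 male. The LPD held 9% casein and 24% sugar, and the CD held 18% casein and 21% sugar. Both had 0% milk fat and 0% cholesterol, were isocaloric and were fed for at least 8 weeks to C57/BL6J males that were 8 weeks old when feeding began. All males then mated with females before they were killed, and sperm swam up into medium from sliced epididymides. The total live sperm fraction gave the RNA, which was depleted of ribosomal RNA and made into stranded total RNA libraries. No marker or lysis step that would remove other cells is described for this fraction, so the libraries describe the collected fraction as a whole.

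Mature sperm are nearly silent in transcription. Their RNA is what remains from spermatids, whose histones are replaced by transition proteins and then protamines, together with RNA gained in the epididymis, where epithelial cells release vesicles that sperm take up. When a cell is short of an amino acid, uncharged transfer RNA activates the kinase Gcn2, translation slows, and the transcription factor Atf4 raises genes for amino acid transport and synthesis, while the kinase complex mTORC1, which drives ribosome production and lipid synthesis through Srebf2 and related factors, becomes less active. Genes of these pathways, and marker genes of the cells a sperm fraction may hold, were therefore followed as lists. The lists were chosen with earlier results of these data known.

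One label conflict touches both groups. The treatment field of LPD male 15 names MD-LPD, the low-protein diet with methyl donors added, that of CD male 15 names LPD, and that of MD-LPD male 15 names another diet again. Groups here follow the titles of these 3 libraries. Total reads were 36537455 to 54108158 in LPD libraries and 32455480 to 38676778 in CD libraries. Transcripts of sperm and of the epididymis were abundant in both groups. Odf1, of the dense fibres around the tail's core, had a mean of 181308 ± 210518 normalised counts in LPD and 147969 ± 54976 in CD (SD, n = 5 each), and Crisp1, secreted by epididymal epithelium, 287209 ± 90447 in LPD and 256937 ± 94730 in CD. The libraries of LPD males 13 and 15 and of CD male 10 stood apart. LPD males 13 and 15 had the highest summed levels of fibroblast and phagocyte genes, and CD male 10 had the most lymphocyte RNA, the least epididymal RNA and the lowest median rank correlation with the other 9 libraries (0.895, against 0.920 to 0.971 for the others). Values are therefore also given without these libraries. Since LPD males 13 and 15 were set apart by these sums, a fall of the fibroblast and phagocyte lists without them was fixed by that choice. The same holds for the shift of the lymphocyte and epididymal lists without CD male 10. The rank correlation of LPD male 15 (0.951) was above those of LPD males 10 (0.920) and 12 (0.9495). A normalised count is the number of reads of a gene in a library divided by that library's size factor.

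No gene differed between LPD and CD sperm past an adjusted p of 0.05 in limma (0.0% of 28311 genes). At an unadjusted limma p under 0.05, 1359 genes (4.8%) were higher in LPD and 1064 (3.76%) were lower. These counts, and those of list members below, take the spread from all 5 diets. With LPD and CD libraries alone in the model, 730 genes were higher and 756 lower at this p. Over all genes tested 46.4% were higher in LPD, with a median difference of -0.04 on the log2 scale. The balance moved with the scaling: of genes at an unadjusted p under 0.05, 56.1% were higher in LPD as scaled by the authors, 75.6% with TMM factors and 30.7% when every library was set to the same total, and the median of all genes then lay at 0.05 with TMM and at -0.28 with equal totals. List medians given below with these scalings are to be set beside these medians of all genes. Limma with a weight for each library, lower where a library lies far from its group, called 1768 genes (6.24%), 777 higher and 991 lower in LPD. The quasi-likelihood test of edgeR on the recovered reads called 0 genes, and without adjustment 2222 genes (7.85%) were higher and 561 (1.98%) lower at that threshold. DESeq2 on the same reads called 40 genes at an adjusted p under 0.05 (0.133% of those with an adjusted p), 32 higher and 8 lower in LPD.

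LPD libraries varied more among themselves than CD libraries. The median SD of a gene was 0.68 in LPD and 0.52 in CD on the log2 scale, and the SD was larger in LPD for 61.4% of genes. Of the 1359 genes higher in LPD, LPD male 13 was the highest LPD library for 45.4% and LPD male 15 for 40.1%, against 14.1% and 18.3% over all genes, and of the 1064 lower genes LPD male 13 was the lowest LPD library for 80.6%, against 31.1%. Without LPD male 13 683 genes were higher in LPD and 300 lower at that threshold, and without LPD male 15 there were 750 and 1121. CD male 14 moved the lower genes past 1.5 times, to 705. With LPD males 13 and 15 and CD male 10 all left out, 158 genes were higher and 176 lower. Every LPD library lay above every CD library for 184 genes (0.65%), and below for 340 (1.2%).

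Bsg and H1f0 separated the groups as scaled by the authors. Overlap of groups was judged under this scaling alone, here and below. Bsg (chr10:79540143-79547821, GRCm39), which encodes basigin, a membrane protein that carries lactate transporters to the surface and is found on sperm, had 1290, 1265, 1683, 2221 and 1738 normalised counts in LPD males 10, 11, 12, 13 and 15, against 1118, 1050, 1073, 1202 and 1141 in CD males 10, 11, 12, 14 and 15. All LPD values were above all CD values, and the CD libraries sat close together. The difference was 0.52 ± 0.14 on the log2 scale (SE, adjusted p = 0.56 in limma), and 0.33 without the 3 libraries that stood apart. H1f0 (chr15:78912650-78914704), the linker histone H1.0 of cells that have stopped dividing, had 773.3, 877.1, 1136, 1535 and 1576 in LPD and 532.1, 504.0, 694.3, 694.2 and 771.2 in CD. The lowest LPD male and the highest CD male nearly touched. The difference of H1f0 was 0.84 ± 0.20 (SE, adjusted p = 0.56 in limma), and 0.48 without the 3 libraries. For the 30 genes chosen by the rule for named genes whose groups did not overlap, the exact two-sided permutation p was 0.00794 each, before any adjustment, the smallest that 5 against 5 libraries allow. These genes were chosen for a low p or a DESeq2 call in the same libraries, and groups of 5 without overlap always give this p. It therefore adds nothing to the separation. Over all genes tested, 0.65% lay above CD and 1.2% below it without overlap.

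Itga9 (chr9:118435722-118730072), the alpha 9 integrin, a receptor for extracellular matrix, was higher in all LPD libraries, with 256.4, 318.7, 254.1, 342.7 and 423.7 normalised counts in LPD and 65.06, 200.1, 215.5, 184.3 and 125.8 in CD. CD male 10 was the lowest library. The difference was 1.10 ± 0.27 on the log2 scale (SE, adjusted p = 0.56 in limma), 0.63 without the 3 libraries and 0.84 with equal totals. The same separation held for Serpinb6a, an intracellular inhibitor of serine proteases, whose difference was 0.99, for Cyb5r3, the NADH-dependent reductase of cytochrome b5, at 0.86, and for the uncharacterised C130074G19Rik at 0.87. Igfbp3, a carrier of insulin-like growth factors, had 232.0 to 842.8 in LPD and 125.5 to 255.2 in CD, a difference of 1.16, with LPD male 12 inside the CD range. Ftl1-ps1, a copy of the ferritin light chain gene, differed by 0.69, and reads of the copies of this gene cannot be told apart with certainty.

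Low-count genes led the list by p. Ripply3, a transcriptional repressor of the embryo, had 13.15, 15.03, 16.72, 48.6 and 15.53 normalised counts in LPD against 0, 0, 0, 9.122 and 9.673 in CD, so the groups did not overlap but rested on few reads. Dhx58os (chr11:100578243-100588527), a long noncoding RNA named for the opposite strand of Dhx58, had 5.26, 21.8, 4.68, 24.3 and 62.11 in LPD and 11.93 in CD male 12 only, with 0 in the other 4 CD males. Its difference of 3.32 ± 0.67 (SE, adjusted p = 0.56 in limma) had the lowest p of any gene, and without CD male 12 it was the 1 gene past the adjusted threshold, at a log2 difference of 4.06 and an adjusted p of 0.00711 in limma. Whether the counting used strand was not stated, so reads of Dhx58os and of a gene on its other strand cannot be told apart. The long noncoding RNA Gm5084 had 9.77 to 56.27 in LPD and 0 to 2.737 in CD.

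Pnisr, Zcchc7 and Trim39 were lower in every LPD library than in any CD library. Pnisr (chr4:21847580-21878215), a serine and arginine rich nuclear protein that associates with splicing factors, had 4995, 4385, 4029, 2880 and 3883 normalised counts in LPD against 7067, 6023, 5768, 6377 and 5240 in CD. Every LPD library was below every CD library, with LPD male 13 the lowest. The difference was -0.61 ± 0.17 on the log2 scale (SE, adjusted p = 0.56 in limma) and -0.39 without the 3 libraries. Zcchc7, a zinc-knuckle protein of nuclear RNA surveillance, had a difference of -0.67 and Trim39, a ubiquitin ligase, had a difference of -0.46, both without overlap. Without LPD male 13 the difference of Pnisr was -0.50.

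The other lower genes of lowest p were small or unannotated. C430039J01Rik, a TEC locus (a transcript that the annotation lists as awaiting experimental proof), had 34.19, 45.85, 43.46, 8.952 and 49.91 normalised counts in LPD against 147.5, 81.53, 112.5, 95.78 and 88.82 in CD, a difference of -1.67 ± 0.38 (SE, adjusted p = 0.56 in limma). The processed pseudogenes Gm7707 and Gm12304, the snoRNA Gm54606, the long noncoding RNA Gm11655 and the TEC locus Gm49058 also lay below the CD range in every LPD library, with differences from -2.36 for Gm12304 to -0.99 for Gm11655. Gsdmc4, a gasdermin, was at 0 in all 5 LPD libraries and in CD male 10, and had 8.471 to 18.74 in the other 4 CD males. The miRNA gene Gm55033 had 0 to 4.509 in LPD and 3.176 to 30.21 in CD.

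**Figure D1:**
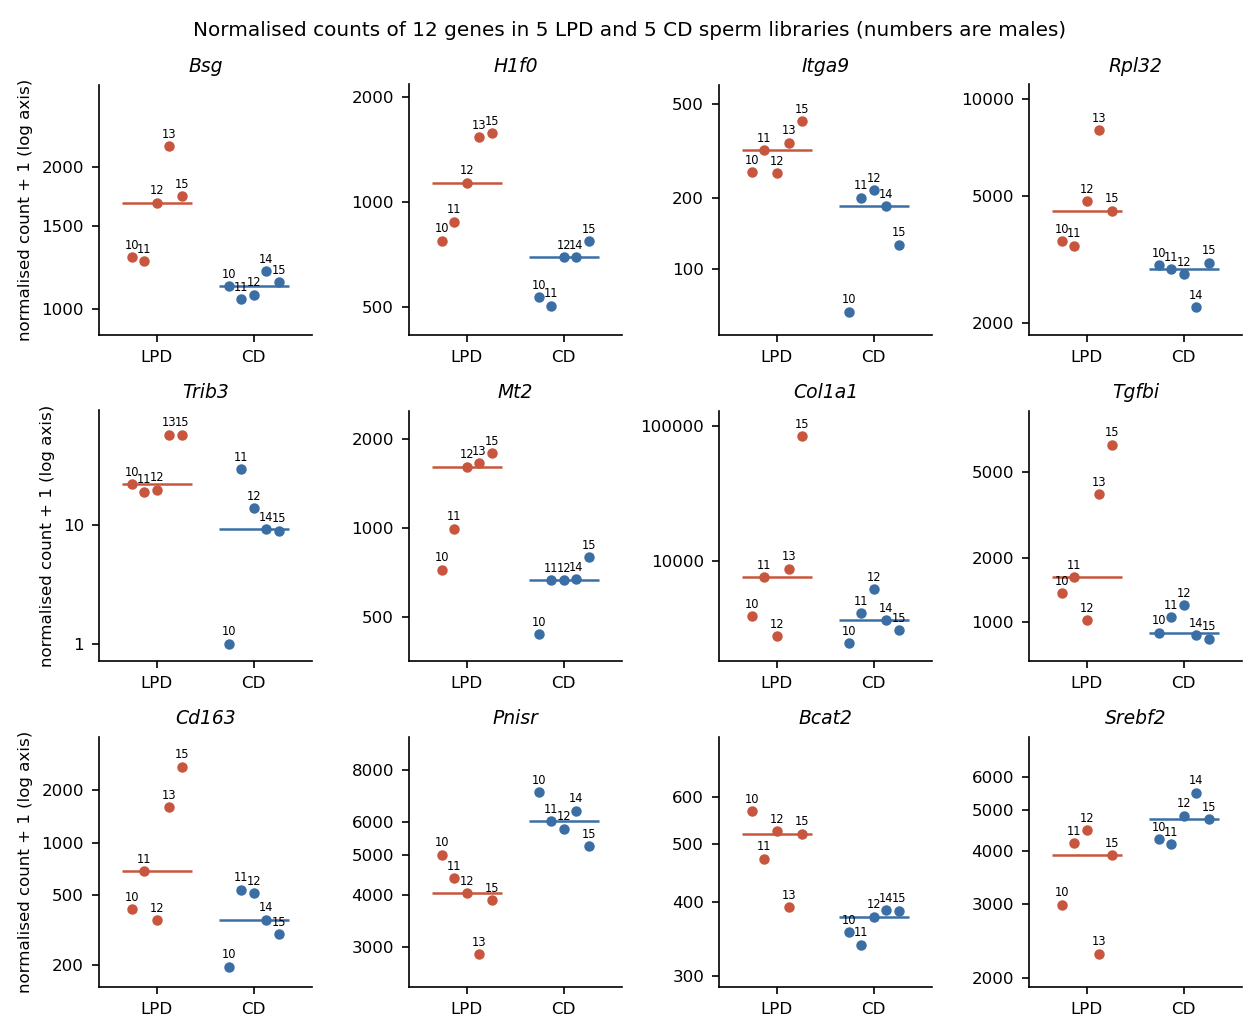
Normalised count plus 1 on a log axis for 12 genes, with LPD libraries at the left (red) and CD libraries at the right (blue) in each panel, points labelled by the male's number and lines at the median of each group. Bsg, H1f0, Itga9, Rpl32 and Bcat2 show every LPD point above every CD point and Pnisr the reverse, whereas Col1a1, Tgfbi and Cd163 are high mainly in LPD males 13 and 15, and Trib3 has CD male 10 at 0.

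Of the genes that DESeq2 called higher in LPD, LPD male 15 was the highest LPD library for 19 of 32 and LPD male 13 for 8. In all, 9 of the 40 calls had no read in any CD library, 6 had none in any LPD library, and 6 had reads in 1 of the 10 libraries. In 11 of the 40 the groups did not overlap, where 0.65% of all genes lay above CD and 1.2% below it. The 40 were called for a difference in these same libraries, so this count adds no support. Calls kept numbered 25 without LPD male 10, 39 without LPD male 11, 38 without LPD male 12, 12 without LPD male 13, 4 without LPD male 15, 9 without CD male 10, 14 without CD male 11, 12 without CD male 12, 4 without CD male 14 and 14 without CD male 15. The total of calls without these males, in the same order, was 368, 103, 310, 15, 4, 12, 14, 20, 4 and 24, and only Gm43064 was called whichever library was left out.

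Gm43064 (chr3:103716889-103745964) is annotated as protein coding and overlaps Ap4b1, a subunit of an adaptor complex for vesicle traffic, so that reads of the 2 genes may be shared. It had 197.3, 32.32, 275.5, 391.3 and 7.763 normalised counts in LPD and 0 in all 5 CD libraries. With 3 counts in all as the floor for the CD group, it was at least 314-fold higher in LPD. Slc22a12, a urate transporter, also had reads in all 5 LPD libraries (4.012 to 48.66) and in no CD library, and was at least 33.8-fold higher, or at least 21.1-fold without LPD male 10. Gucy2f, a guanylate cyclase of photoreceptors, had 0 to 23.67 in LPD and 0 in CD.

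The following genes, which DESeq2 called from 1 or a few libraries, had an unadjusted limma p from 0.052 (Ighv14-4) to 0.78 (Igkv4-90). Apoa1, the main protein of high-density lipoprotein, had 13.15 and 15.53 normalised counts in LPD males 10 and 15 and 0 in the other 3 LPD males and in all CD males, and Apoa4, another apolipoprotein, 6.575 and 7.763 in the same males. Gc, the vitamin D binding protein, and Fgg, a chain of fibrinogen, had reads in LPD male 15 alone (37.71 and 18.85). Limma p was 0.27 for Apoa1, 0.40 for Apoa4, 0.51 for Gc and 0.56 for Fgg. On the lower side Gm20521 (302.8 in CD male 14), Rps18-ps4 (93.71 in CD male 12), Rdh9 (70.71 in CD male 12) and Igkv4-90 (2.324 in CD male 10) were each seen in a single CD library, and Gm49936 and Ighv14-4 in few. Pcdhga10, a protocadherin, and Trpc2, a cation channel known from mouse vomeronasal neurons and sperm, had reads in 3 and 2 LPD libraries and in no CD library.

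Hexa, Renbp, Uap1l1, Serpina3n and Dio3 were among the DESeq2 calls with reads in every library. Hexa, the alpha chain of the lysosomal enzyme beta-hexosaminidase, had 722.0, 654.6, 597.1, 1273 and 1339 normalised counts in LPD against 454.3, 473.3, 512.0, 464.3 and 415.1 in CD, with no overlap and a limma difference of 0.90 ± 0.23 (SE). Renbp, an enzyme of N-acetylglucosamine metabolism, differed by 1.02 and Uap1l1, a relative of the enzyme that makes UDP-N-acetylglucosamine, by 0.88, also without overlap. Serpina3n, an acute-phase inhibitor of proteases, had 10042 in LPD male 15, 378.4 to 1102 in the other LPD males and 158.0 to 458.3 in CD, and its difference of 1.63 was 0.80 without LPD male 15. Dio3, the deiodinase that inactivates thyroid hormone, had 48.66 to 221.8 in LPD and 19.35 to 55.06 in CD.

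Genes of fibroblasts and extracellular matrix were the list that differed most between LPD and CD, and the difference followed LPD males 13 and 15. All 50 members were higher in LPD, against 46.4% of all genes, and 40 had an unadjusted limma p under 0.05, against 4.8%. None passed after adjustment, and the median was 1.06 on the log2 scale against -0.04 over all genes. The list was chosen with earlier results of these data known. It holds genes that DESeq2 called in these libraries, Col1a1, Tgfbi and Lox among them. These shares are therefore not an independent test. Col1a1, the alpha 1 chain of type I collagen, had 3936, 7644, 2785, 8789 and 84206 normalised counts in LPD and 2484, 4115, 6189, 3671 and 3077 in CD. LPD male 15 was far above every other library, and the remaining LPD and CD values overlapped. The difference of Col1a1 was 1.29, 0.48 without LPD male 15 and 0.09 without the 3 libraries. Tgfbi, a matrix protein induced by transforming growth factor beta, had 1366, 1619, 1018, 3951 and 6719 in LPD and 892.3, 1056, 1195, 869.3 and 836.3 in CD, with LPD male 12 inside the CD range.

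Summed over the list, the matrix genes reached 105965, 123462, 69846, 302776 and 483048 normalised counts in LPD males 10, 11, 12, 13 and 15, against 83938, 110634, 105891, 71850 and 71269 in CD males 10, 11, 12, 14 and 15. Only LPD males 11, 13 and 15 exceeded the CD range, and the highest LPD library was male 15 for 37 members and male 13 for 13. Members at an unadjusted p under 0.05 numbered 12 without LPD male 15, 17 without LPD male 13, 20 without CD male 10 and 1 without all 3, where the median was 0.18. LPD males 13 and 15 were chosen for their high sums of this list, so the fall without them was fixed by that choice. The median was 0.66 without LPD male 15. Without the libraries whose treatment field names another diet, the median was 0.62 and 5 members had an unadjusted p under 0.05. No member separated the groups completely.

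Markers of phagocytes moved in the same libraries, and those of endothelium did so only in part. Of 25 genes of mononuclear phagocytes 23 were higher in LPD and 9 had an unadjusted limma p under 0.05, against 4.8% of all genes. The median was 0.68. These 9 were 1 without LPD male 15, 3 without LPD male 13 or CD male 15, and 4 without CD male 14. They were 14 without LPD male 11 and 19 without LPD male 12. Without the libraries whose treatment field names another diet there was 1. Cd163, a scavenger receptor of macrophages, had 418.2, 685.4, 359.0, 1588 and 2714 normalised counts in LPD and 195.2, 538.9, 515.4, 363.0 and 299.9 in CD. Of 18 endothelial genes 16 were higher, 8 at an unadjusted p under 0.05, against 4.8% of all genes, with a median of 0.71. These 8 were 3 without LPD male 15 and 5 without CD male 14. They were 4 without LPD male 13, CD male 10, LPD male 11 or CD male 15. Without the libraries whose treatment field names another diet there were 3. The endothelial sum was highest in CD male 10 (6354), above LPD males 13 (5701) and 15 (4071). The phagocyte median was 0.33 without LPD male 15 and the endothelial one 0.47 without LPD male 13, and without the 3 libraries they were 0.05 for phagocytes and 0.25 for endothelium. In these bulk samples fewer cells of a type and less RNA per cell cannot be told apart, and the part of other cells in the genes above was not tested.

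Genes of lymphocytes, red cells and fat cells had medians near that of all genes, and each turned its sign when single libraries were left out. Lymphocyte genes had 8 of 23 members higher in LPD and a median of -0.05, which with 1 library left out ran from -0.30 without CD male 14 to 0.42 without CD male 10. Their sum in CD male 10 was 82444 normalised counts, against 8846 to 23312 in LPD and 8692 to 15848 in the other CD males. Erythrocyte genes had 3 of 9 members higher and a median of -0.05, with a range of -0.43 without CD male 11 to 0.35 without LPD male 12. Adipocyte genes had 6 of 14 and -0.10, with a range of -0.38 without LPD male 12 to 0.11 without CD male 11. Smooth muscle genes had 14 of 18 and 0.26, which was 0.00 with equal totals, -0.03 without CD male 10, 0.55 without LPD male 10 and 0.41 without CD male 15. Neutrophil genes had 5 of 6 and 0.40, and 0.63 without CD male 15. Sertoli cell genes had 9 of 11 and 0.48, which was 0.02 without CD male 10, 0.26 without LPD male 13 and 0.87 without LPD male 15. Leydig cell genes had 5 of 8 and 0.26, and 0.09 without CD male 10 and 0.16 without LPD male 12. Wt1, a transcription factor of Sertoli cells, had 192.0 to 326.1 in LPD and 106.9 to 139.7 in CD, a difference of 0.91 ± 0.27 (SE, adjusted p = 0.56 in limma) without overlap. Srd5a1, the steroid 5 alpha-reductase, was 0.60 higher and had an overlap of 1 LPD library with CD.

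**Figure D2:**
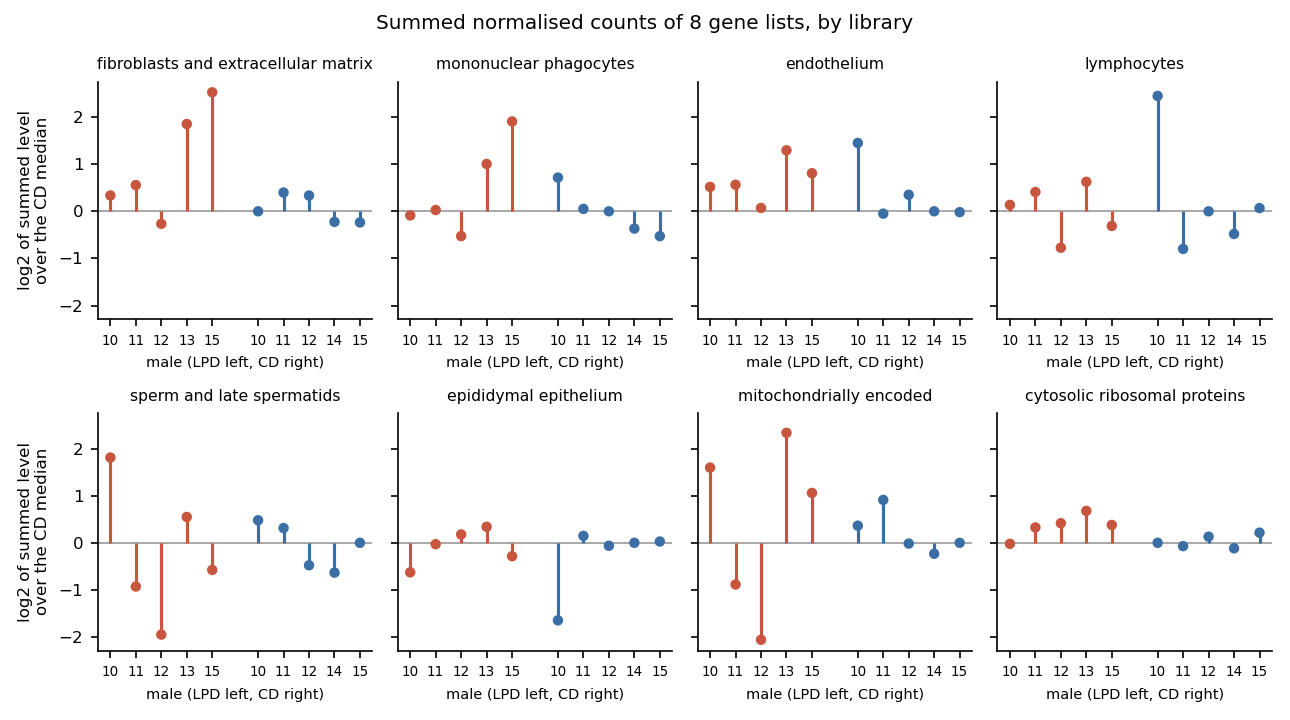
Summed normalised counts of 8 gene lists in each library, as log2 over the CD median, with LPD males 10, 11, 12, 13 and 15 at the left (red) and CD males 10, 11, 12, 14 and 15 at the right (blue) of each panel. Fibroblast and phagocyte genes are highest in LPD males 13 and 15, lymphocyte genes in CD male 10, sperm and mitochondrially encoded genes are spread widely over the LPD males, and ribosomal protein genes are above the CD range in 4 of 5 LPD males.

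Sperm transcripts gave no member past the test in either direction and spread widely over the LPD males. Of 39 genes of sperm and late spermatids 24 were higher in LPD, none at an unadjusted p under 0.05 in either direction, with a median of 0.05 that was -0.21 with equal totals. With 1 library left out it ran from -0.37 without LPD male 10 to 0.43 without LPD male 12, and it was also below 0 without LPD male 13, CD male 12 or CD male 14. Their sums were 1674729, 251120, 123956, 699256 and 320642 normalised counts in LPD and 665596, 593975, 343513, 308436 and 477981 in CD. LPD males 10 and 13 were above every CD library, and LPD males 11 and 12 were below every CD library. Prm2, a protamine that packs sperm DNA, averaged 28439 ± 22780 in LPD and 16896 ± 5620 in CD (SD, n = 5 each). Spermatocyte genes had 5 of 20 members higher and a median of -0.20, and piRNA pathway genes, which guard the germ line against transposons, 8 of 24 and -0.12, with no member at an unadjusted p under 0.05. With 1 library left out the medians ran from -0.68 without LPD male 10 to 0.13 without LPD male 12 for spermatocyte genes, and from -0.53 without LPD male 10 to 0.22 without LPD male 12 for piRNA pathway genes.

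Epididymal genes were 24 of 31 higher in LPD with a median of 0.22, but the sum was 177963 in CD male 10, against 360765 to 704555 in LPD and 533361 to 616649 in the other CD males, and without CD male 10 the median was -0.05. With equal totals it was -0.03. CD male 10 was set apart in part for its low epididymal RNA, so the fall without it followed from that choice. No epididymal member had an unadjusted p under 0.05. Npc2, a cholesterol-binding protein secreted by the epididymis, had 5359 to 8087 in LPD and 4371 to 6465 in CD, a difference of 0.32.

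Cytosolic ribosomal protein genes were nearly all higher in LPD, by modest amounts, with LPD male 13 the highest. Of 81 genes 78 were higher, 33 at an unadjusted limma p under 0.05, against 4.8% over all genes, and none after adjustment, with a median of 0.38, which was 0.47 with TMM and 0.12 with equal totals. Rpl32, a protein of the large subunit, had 3603, 3494, 4799, 8012 and 4495 normalised counts in LPD and 3037, 2946, 2845, 2248 and 3089 in CD, a difference of 0.72 ± 0.21 (SE, adjusted p = 0.56 in limma). LPD male 13 was the highest library, and the groups did not overlap. Processed pseudogenes of these genes can share their reads.

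The sums of the ribosomal list were 386623, 491895, 523358, 627041 and 510019 in LPD and 392254, 373442, 429535, 361755 and 455332 in CD, so that LPD male 10 lay inside the CD range and the other 4 LPD males above it. LPD male 13 was the highest LPD library for 57 members, and 8 members lay above CD without overlap, against 0.65% of all genes. At an unadjusted p under 0.05 the members numbered 12 without LPD male 13, 21 without CD male 14, 52 without LPD male 10 and 3 without the 3 libraries, where 72 of 81 were still higher and the median was 0.24. The members below CD were Rpl3l, Rpl39l and Rpl9, with differences from -0.17 to -0.03. Of these, Rpl3l and Rpl39l are tissue-restricted copies of the common genes, in muscle and testis.

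Ribosomal protein messenger RNAs begin with a C followed by an unbroken run of pyrimidines, the 5′ terminal oligopyrimidine tract, through which mTORC1 controls their translation. The start windows of both genes printed here show this tract and were taken, after their values were seen, as the members of lowest p that were higher in LPD and held it. The capitals mark a run of at least 6 C or T bases that begins with C within 5 bases of the RefSeq start, and each window has 10 bases before the start and 17 from it on (RefSeq, GRCm38.p6, plus strand, the strand of both genes).
Rpl27a, chr7:109519185-109519211: cgtgagCTCCTCCCTTTTCCCTTTCTg
Rpl38, chr11:114668570-114668596: aagcctcgttCTTTCCCCgttctcttc
Such a run was found in 26 of 60 ribosomal protein genes matched to the promoter table (43.3%), and in 3229 of 27025 genes in all (11.9%). Rpl27a had 1202, 1393, 1682, 2165 and 1869 normalised counts in LPD and 1040, 929.7, 1142, 1080 and 1415 in CD, a difference of 0.55, with LPD males 10 and 11 inside the CD range. Rpl38 had 3385, 3369, 3448, 6336 and 4599 in LPD and 2628, 2934, 2833, 2383 and 3087 in CD, a difference of 0.57 without overlap.

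The amino acid response lay close to the median of all genes as a list. Of 39 Atf4 targets 20 were higher in LPD, with a median of 0.03 that was -0.19 with equal totals. At an unadjusted limma p under 0.05 there were 5 higher members and none lower, against 4.8% and 3.76% of all genes. The 5 were 3 without LPD male 15. These 5, named after their values were seen, were Atf5, Trib3, Nupr1, Eif4ebp1 and Slc7a5. Asns, which makes asparagine, and the other synthesis enzymes and transfer RNA synthetases of the list were not among them. Without the 3 libraries none of the 39 had such a p.

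Trib3, a pseudokinase that restrains Atf4 signalling, had 21.04, 18.04, 18.72, 56.27 and 56.56 normalised counts in LPD and 0, 28.59, 12.78, 8.21 and 7.915 in CD, a difference of 1.93 ± 0.63 (SE, adjusted p = 0.56 in limma). LPD males 13 and 15 were above all other libraries, CD male 11 lay above the other LPD males, and the difference was 1.18 without CD male 10 and 0.58 without the 3 libraries. Atf5, a transcription factor of the same pathway, had 553.7, 566.7, 418.6, 1336 and 827.3 in LPD and 270.7, 374.8, 428.5, 332.0 and 367.6 in CD, a difference of 0.95 ± 0.28 (SE, adjusted p = 0.56 in limma), with LPD male 12 inside the CD range. Eif4ebp1, which binds the cap-binding factor when mTORC1 is inactive, differed by 0.72.

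Slc7a5 and Nupr1 differed in how the libraries fell. Slc7a5, the transporter of leucine and other large neutral amino acids, had 668.1, 702.0, 745.5, 693.2 and 704.2 normalised counts in LPD and 504.2, 607.8, 639.8, 639.4 and 572.5 in CD. This was the 1 Atf4 target of 39 whose groups did not overlap, where 0.65% of all genes lay above CD. No LPD male stood out, although its difference was small, at 0.25 ± 0.12 (SE, adjusted p = 0.58 in limma). Nupr1, a small stress-induced nuclear protein, had 71.01, 89.44, 70.87, 199.5 and 248.4 in LPD and 44.15, 74.12, 67.3, 54.73 and 62.44 in CD, a difference of 0.97, and was highest in LPD males 13 and 15.

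Atf4 binds as a partner of C/EBP proteins to an element with the letters TGATGNAA. Windows around this match are shown for Trib3 and Nupr1, the higher list members of lowest p whose promoters held it, chosen after their values were seen. The capitals mark the match, and 8 bases are printed on either side (RefSeq, GRCm38.p6, printed on the plus strand, while both genes lie on the minus strand).
Trib3, chr2:152344031-152344054: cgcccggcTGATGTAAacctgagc
Nupr1, chr7:126625565-126625588: gccctgtcTGATGCAAtctggccc
The match, on either strand and from 250 bases before to 50 after a start, was present in 8 of 27 Atf4 targets matched to the table (29.6%) and in 1219 of 27025 genes in all (4.51%). It lies 14 bases after the start in Trib3 and 110 before it in Nupr1. A match describes letters only.

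Genes of mTORC1 and nutrient sensing were 24 of 46 higher in LPD with a median of 0.00, and -0.26 with equal totals. Deptor, an inhibitor within mTORC1, had 402.4 to 1131 normalised counts in LPD and 453.2 to 554.6 in CD, a difference of 0.49, which was 0.32 without LPD male 15 and 0.11 without the 3 libraries. Autophagy and lysosome genes were 32 of 50 higher with a median of 0.18, 0.08 without LPD male 15 and -0.08 with equal totals. Of these 7 had an unadjusted p under 0.05, where 4.8% of all genes were higher. The 7 were 4 without LPD male 13 or LPD male 15 and 15 without LPD male 10. Ctsl, the lysosomal protease cathepsin L, had 2192 to 6062 in LPD and 1459 to 2661 in CD, highest in LPD males 13 and 15. Gabarap, which joins the membrane of autophagosomes, had 4295, 4753, 5787, 6437 and 5527 in LPD against 3205, 3586, 4304, 4092 and 4487 in CD, a difference of 0.44; it was named after its values were seen.

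Genes of amino acid breakdown and the urea cycle were 18 of 44 higher in LPD, with a median of -0.14, which with 1 library left out ran from -0.25 without CD male 10 to 0.03 without LPD male 13. Bcat2, the mitochondrial transaminase that starts the breakdown of branched-chain amino acids, had 566.8, 471.2, 524.2, 390.1 and 519.0 normalised counts in LPD and 354.4, 337.8, 376.6, 385.8 and 385.2 in CD. All LPD values were above all CD values, LPD male 13 being the lowest of them. The difference was 0.42 ± 0.15 (SE, adjusted p = 0.56 in limma), and 0.48 without the 3 libraries. Gls2, a glutaminase, had 13.31 to 26.86 in LPD and 0 to 16.94 in CD. Genes of one-carbon metabolism and methylation were 15 of 40 higher with a median of -0.11 and a range of -0.22 without CD male 10 to -0.05 without LPD male 13. Tet2, which oxidises methylcytosine, had 2337 to 4051 in LPD and 3568 to 5513 in CD, a difference of -0.42.

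Genes of cholesterol and fatty acid synthesis lay lower in LPD by small amounts. Of 32 genes 30 were lower and 2 higher, where 46.4% of all genes were higher. At an unadjusted limma p under 0.05 there was 1 lower gene, against 3.76% of all genes. The median was -0.27 against -0.04 over all genes, -0.17 against 0.05 with TMM and -0.53 against -0.28 with equal totals. Srebf2, the transcription factor that senses sterols and drives the pathway, had 2984, 4177, 4486, 2280 and 3913 normalised counts in LPD and 4273, 4148, 4858, 5511 and 4757 in CD. LPD males 10, 13 and 15 were below every CD library. The difference was -0.44 ± 0.19 (SE, adjusted p = 0.56 in limma), and -0.28 without LPD male 13.

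For the list, the sums were 76789, 117325, 130909, 79183 and 78848 in LPD and 88258, 110809, 119802, 143884 and 124787 in CD, with LPD males 11 and 12 inside the CD range. Without CD male 10 the median was -0.47 and 6 genes had an unadjusted p under 0.05, all lower. It was -0.17 without LPD male 10, -0.17 without LPD male 13 and -0.17 without CD male 14, with 0 such genes in each. Without the 3 libraries the median was -0.29. Ebp, a late enzyme of cholesterol synthesis, was among the higher members, at 0.13.

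Lipoproteins, their receptors and cholesterol transport lay higher in LPD, as did liver-secreted proteins, mostly at low counts or in LPD males 13 and 15. Of 37 genes of the lipoprotein list 32 were higher, 5 at an unadjusted limma p under 0.05, against 4.8% of all genes. In 3 members all CD libraries were at 0, so these could not be lower. The median was 0.55, and 0.10 without the 3 libraries. The 5 members at such a p were 1 without LPD male 13, 2 without LPD male 15 and 3 without CD male 10. Apoe, which carries lipid between cells and is made by macrophages and liver, had 8102, 7760, 6422, 27073 and 23106 normalised counts in LPD and 5067, 8849, 6975, 5695 and 4925 in CD, a difference of 0.97. Lrp1, an endocytic receptor of apoE, had 7153, 11271, 7318, 18198 and 24866 in LPD and 6946, 7786, 8944, 7495 and 6701 in CD, a difference of 0.69, which was 0.43 without LPD male 15 and 0.13 without the 3 libraries. The summed level of phagocyte genes was highest in the same LPD males 13 and 15 (61362 and 114595, against 21217 to 50218 in CD), and its part in these differences was not tested.

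Liver-secreted genes were 34 of 40 higher in LPD with a median of 0.87. But 3 had an unadjusted p under 0.05, where 4.8% of all genes were higher. The 3 were 1 without LPD male 13 or LPD male 15 and 6 without LPD male 12 or CD male 14. In 10 members all CD libraries were at 0, so these could not be lower in LPD, which partly fixes the count and the median. Genes passed the filter by their mean over all diets, and Gc averaged 94.79 in MD-LPD and 7.54 in LPD. With the 10 members at the bound that the floor gives, the median was 0.92. C3, the central complement component, also made by macrophages, had 10415, 12970, 13392, 36907 and 35425 normalised counts in LPD and 11438, 10022, 11906, 9166 and 8806 in CD. Alb, the defining product of hepatocytes, had 31.42 to 314.3 in LPD and 14.95 to 111.2 in CD, small beside Crisp1. Without the 3 libraries the median of the list was 0.28.

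**Figure D3:**
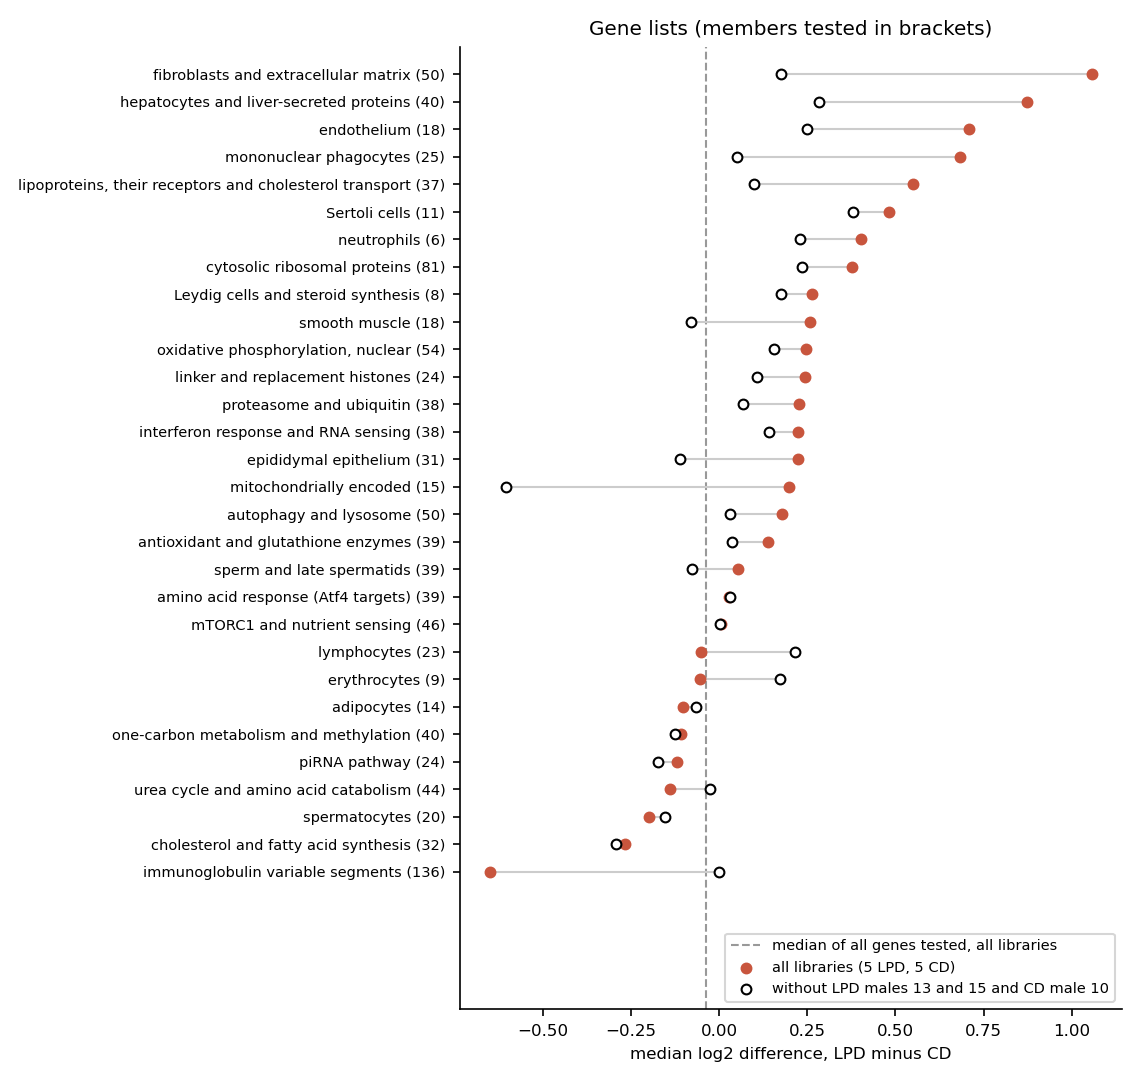
Median log2 difference, LPD minus CD, of 30 gene lists, with the number of members tested in brackets, in all 10 libraries (filled red) and without LPD males 13 and 15 and CD male 10 (open), and the median of all genes tested as a dashed line. Fibroblast genes go to 0.18 when the 3 libraries are left out, ribosomal protein genes to 0.24, and cholesterol and fatty acid synthesis to -0.29. LPD males 13 and 15 were chosen for high fibroblast and phagocyte sums, so the fall of these 2 lists follows from the choice.

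Antioxidant and interferon genes were higher in part. Of 39 antioxidant and glutathione genes 28 were higher in LPD, 5 at an unadjusted limma p under 0.05, against 4.8% of all genes. The median was 0.14, 0.26 without LPD male 10, 0.08 without CD male 10 and -0.12 with equal totals. The 5 were 10 without LPD male 10. Mt2, a metal-binding metallothionein, had 720.7, 992.1, 1608, 1655 and 1786 normalised counts in LPD and 434.5, 663.9, 663.7, 668.6 and 794.1 in CD, a difference of 1.01 ± 0.29 (SE, adjusted p = 0.56 in limma), and LPD male 10 alone lay inside the CD range. Gpx8, a peroxidase of the endoplasmic reticulum, had 26.3 to 71.62 in LPD and 0 to 21.3 in CD without overlap. Of 38 interferon response genes 29 were higher, 7 at an unadjusted p under 0.05, against 4.8% of all genes. The median was 0.23, 0.35 without LPD male 12, 0.13 without LPD male 15 and -0.03 with equal totals. The 7 were 3 without LPD male 15, 4 without LPD male 13 or LPD male 11 and 11 without LPD male 12. Ifitm1, an interferon-induced membrane protein, had 128.9, 151.8, 91.6, 548.7 and 466.9 in LPD and 55.77, 102.7, 71.56, 55.64 and 63.32 in CD. Rtp4, another interferon-induced gene, had 256.4 to 446.3 in LPD and 147.5 to 240.8 in CD without overlap.

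Housekeeping machinery was slightly higher in LPD, and the sign of its medians depended on the scaling. Nuclear genes of oxidative phosphorylation were 49 of 54 higher with a median of 0.25, and proteasome and ubiquitin genes 33 of 38 with 0.23. Linker and replacement histones were 18 of 24 higher with 0.24. With equal totals these medians were -0.01, -0.03 and -0.02, above the -0.28 of all genes. Without LPD male 12 they were 0.09 for oxidative phosphorylation and 0.13 for the proteasome, without CD male 10 0.16 and 0.12, and for histones 0.14 without LPD male 13 and 0.14 without LPD male 15. Ndufa13, a subunit of complex I, had 1035, 770.4, 893.3, 1416 and 847.3 normalised counts in LPD and 488.0, 533.7, 675.6, 699.6 and 753.6 in CD, a difference of 0.64 without overlap. Ubb, which encodes ubiquitin, differed by 0.58. In Ubb, LPD males 11 and 15 (10118 and 10862) lay inside the CD range of 8466 to 11871, whereas LPD males 10, 12 and 13 had 16716 to 18694. At an unadjusted p under 0.05, where 4.8% of all genes were higher, there were 3 of the 54 genes of oxidative phosphorylation, 9 without CD male 15, 6 without LPD male 10 or LPD male 11 and 1 without LPD male 12, and 7 of the proteasome list, 2 without LPD male 12 or LPD male 13.

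Immunoglobulin variable segments were mostly lower in LPD, and most abundant in CD male 10. Of 136 segments 112 were lower, 6 at an unadjusted limma p under 0.05, against 3.76% of all genes, with a median of -0.65. In 9 segments all LPD libraries were at 0, so these could not be higher in LPD. Their summed level was 1307 to 3674 normalised counts in LPD, 11505 in CD male 10 and 1314 to 3098 in the other CD males. Without CD male 10 the median was -0.25, without CD male 11 -1.13, and without the 3 libraries 0.00. Ighv1-81 had 12.03 in LPD male 11 and 0 in the other LPD males, against 8.519 to 115.0 in CD. The 6 genes with such a p were 13 without CD male 11, 11 without CD male 15 and 10 without LPD male 11. Near-identical segments share reads, so single segments are uncertain.

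The kinds of RNA in the libraries varied more among LPD males than between the diets. Nuclear protein-coding genes took 45.4%, 70.5%, 81.4%, 33.8% and 49.7% of reads in LPD males 10, 11, 12, 13 and 15, against 61.0%, 52.8%, 64.0%, 66.7% and 64.2% in CD males 10, 11, 12, 14 and 15. The mitochondrial genome took 25.4%, 10.5%, 5.31%, 39.4% and 27.0% in LPD and 18.4%, 24.8%, 16.6%, 14.7% and 16.5% in CD. For the mitochondrial genome LPD males 10, 13 and 15 were above every CD library and LPD males 11 and 12 below every one. The exact two-sided permutation test of 5 against 5 gave p = 0.571 for protein-coding genes and 0.643 for the mitochondrial genome, and the smallest p this design allows is 0.00794. Unprocessed pseudogenes took 6.06% ± 3.82 in LPD and 5.08% ± 1.08 in CD (SD, n = 5 each).

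All 15 mitochondrially encoded genes were higher in LPD with a median of 0.20, but none had an unadjusted p under 0.05, and the median was -0.06 with equal totals and -0.60 without the 3 libraries, and also lay below 0 without LPD male 10 (-0.10) or LPD male 13 (-0.28). The ribosomal RNA mt-Rnr1 had 6808, 949.2, 351.7, 18978 and 10512 normalised counts in LPD and 2078, 1632, 485.6, 1241 and 1727 in CD, although ribosomal RNA was depleted before sequencing. Long noncoding RNA took 1.86% ± 0.72 of reads in LPD and 2.46% ± 0.22 in CD (SD, n = 5 each), with an exact permutation p of 0.111. With mitochondrial and 7SL reads left out of the total it was 2.59% ± 0.56 in LPD and 3.24% ± 0.16 in CD, every LPD library being below every CD library, with an exact permutation p of 0.00794 and 0.0873 after adjustment over the 11 kinds compared by this measure. TEC loci took, by the same measure, 0.49% ± 0.20 in LPD and 0.82% ± 0.22 in CD (SD, n = 5 each, exact permutation p = 0.0238, adjusted p = 0.131). The total of this measure still held unprocessed pseudogenes, whose share ranked the 10 libraries in the same order as the mitochondrial share. They took 11.07% in LPD male 13 and 1.57% in LPD male 12. Whether long noncoding RNA separates the groups with these reads also left out was not tested.

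**Figure D4:**
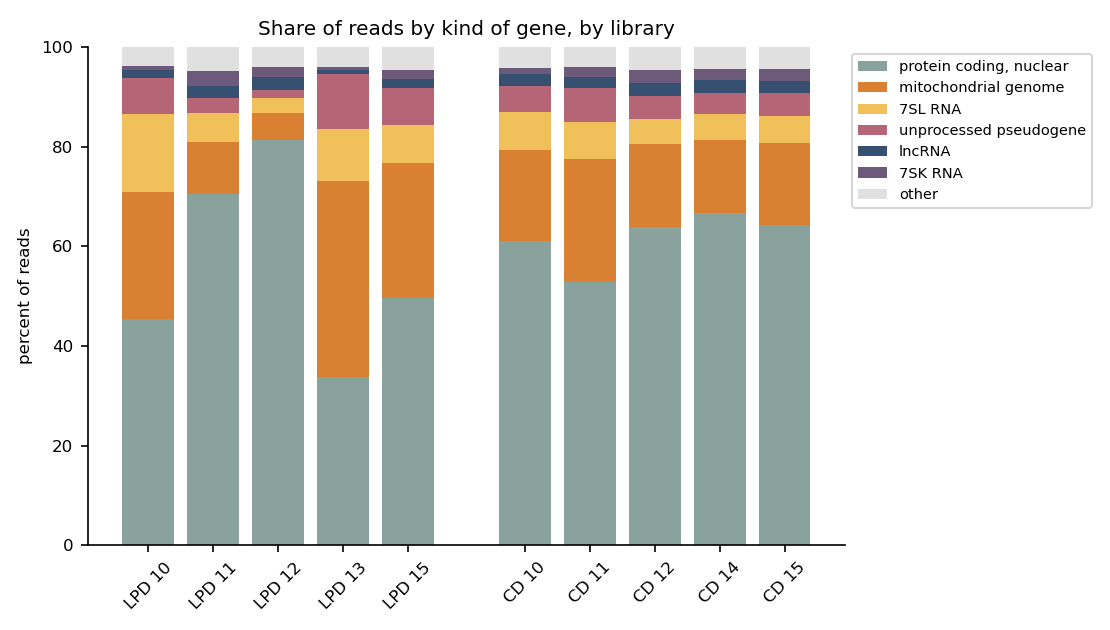
Percent of reads by kind of gene in each library, with LPD males at the left and CD males at the right. The shares of nuclear protein-coding genes run from 33.8% to 81.4% over the LPD libraries and from 52.8% to 66.7% over the CD libraries.

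The diet nearest to LPD, MD-LPD, has the same casein and sugar with methyl donors added, and LPD was also set against it. In limma no gene differed between LPD and MD-LPD past an adjusted p of 0.05 (0.0%), and without adjustment 189 genes (0.668%) were higher and 262 (0.925%) lower in LPD. EdgeR called 0 genes and DESeq2 15 (0.0316%). Bsg was 0.14 higher in LPD than in MD-LPD on the log2 scale, H1f0 0.33, Itga9 0.45 and Gm43064 1.85, and Pnisr had a difference of -0.27. Fibroblast genes had a median of 0.59 in LPD against MD-LPD, ribosomal protein genes 0.07, liver-secreted genes -1.28 and immunoglobulin segments -1.42. The comparisons with CD and with MD-LPD share the LPD libraries.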

How the data were processed

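The deposited table holds, for 47575 genes and 25 libraries, a signal that the authors made by dividing each gene's read count by the library's DESeq2 size factor. Per the labels and the study's methods, libraries were stranded, reads were trimmed with Trim Galore 0.6.7, aligned to GRCm39 with HISAT2 2.2.1 and counted with StringTie 2.2.1. Whole reads were recovered for 100.0% of values, within 0.01, and were used for edgeR 4.0.16 and DESeq2 1.42.0 only. GENCODE vM39 named 47034 genes. Each library was made from 1 male, no 2 libraries were duplicates, and 5 of the males given for each diet were analysed here. The p-values measure the spread between these males.

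The main test was limma (3.58.1, in R 4.3.3) on log2(normalised count + 1), its empirical Bayes step trended and robust, for the 28311 genes whose mean over all libraries was 5 or more, all 5 diets in 1 model, and p adjusted by the method of Benjamini and Hochberg over all genes. Folds on this scale understate changes of low genes. Shares of reads and single values used an exact two-sided permutation test. For genes at 0 in a whole group a floor of 3 counts over the group was used. Intervals and floors cover counting error only, since molecules were not tagged. Members and the 30 gene lists were chosen with earlier results of these data known. Named genes are the 8 of lowest p in each direction, the 8 protein-coding genes of lowest p with a mean of at least 1000, every DESeq2 call and 2 members of lowest p in each list, and the text says where another gene was chosen for its values. Alternatives were pseudocounts of 0.5 and 5, a mean of at least 50 and no filter, TMM and equal totals, array weights, empirical Bayes that is not robust, 2 diets alone, a replicate block, grouping by the treatment field, leaving out each library, edgeR and DESeq2. Leaving out LPD males 13 and 15 and CD male 10 together, and refits of DESeq2, were chosen after seeing the data. Some genes chosen by this rule are not reported here. Limma was tried on simulated counts with known folds. Promoter windows were RefSeq's. Python 3.11.15 was used with pandas 2.3.3, numpy 2.4.6, matplotlib 3.10.9 and scipy 1.17.1.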

Additional observations from a re-analysis of the deposited data

Results flagged for a closer look

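Of 308 groups of 5 libraries tried, 44 held 1 library far from the other 4, where chance gives about 1 in 20 for genes not chosen by their values. The named genes among them were chosen by their values, some with reads in 1 library, so the 44 are not read as an excess. CD male 10 accounted for most of them. Its summed normalised counts were low for epididymal epithelium (177963, others 533361 to 616649), neutrophil genes (6132, others 20905 to 24723) and Leydig cell genes (17016, others 49667 to 64088), and high for lymphocytes (82444, others 8692 to 15848), endothelium (6354, others 2248 to 2966), adipocytes (41358, others 19328 to 23832) and histones (26112, others 17003 to 18800). Its high genes were the B cell genes Ms4a1 (5883) and Cd79a (4768), the small RNA Gm54606 (30.21), the TEC locus Gm49058 (253.3) and Igkv4-90 (2.324, with 0 in the others). Low in CD male 10 were the lipocalin Lcn2 (323.0), the piRNA factor Tdrkh (224.2), Cilp (66.22), Cdr2l (24.4) and Adam12 (8.133), and at 0 there, with reads in the other CD males, were Gsdmc4, Majin, Ovol2, Fcgr1, S100a8, Cldn11, Cyp11a1, Nnmt and Gpx8.

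Among the other CD males, genes with reads in 1 library were Dhx58os (11.93), Rps18-ps4 (93.71) and Rdh9 (70.71) in CD male 12 and Gm20521 (302.8) in CD male 14. CD male 12 was low for mt-Rnr2 (1433, others 3377 to 4763), CD male 14 for Rpl32 (2248, others 2845 to 3089), and CD male 11 for Plvap (0, others 15.83 to 37.49) and for the summed mTORC1 genes (53951, others 59643 to 62026).

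Among LPD males, male 13 was high for Ripply3 (48.6, others 13.15 to 16.72), Gls2 (26.86, others 13.31 to 16.05) and the snoRNA share of reads (1.76%, others 0.116% to 0.583%), and low for C430039J01Rik (8.952, others 34.19 to 49.91) and Zcchc7 (1993, others 3669 to 4077). LPD male 15 alone had reads of Gc (37.71) and Fgg (18.85) and had the highest snRNA share (0.401%, others 0.124% to 0.204%). LPD male 10 was low for Srd5a1 (113.1, others 184.1 to 196.9), and LPD male 11 alone had reads of Ighv1-81 (12.03).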

How the results depend on the processing

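Limma called 0 genes between LPD and CD under the pseudocounts, filters, scalings, groupings and edgeR listed above, with 3 exceptions. It called 1768 with array weights, DESeq2 called 40 at its default and with its filter at 0.05, and leaving out 1 library gave 0 to 1 calls. DESeq2 called 6 genes with LPD and CD alone and 4 to 368 when 1 library was left out. Between LPD and MD-LPD there was 1 call with the 2 groups alone, 37 with array weights and 15 with DESeq2. The replicate block called 0 genes, and without adjustment 949 genes were higher and 412 lower. Correlations of the deviations of libraries with the same number were 0.10, -0.06, 0.27 and -0.05 for males 10, 11, 12 and 15, so the numbers do not pair the males. Grouping by the treatment field gave 735 higher and 856 lower such genes, and leaving those libraries out 741 and 1026.

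Without mitochondrial and 7SL reads the difference in share was -0.65 percentage points for long noncoding RNA and -0.33 for TEC loci. With 1 library left out it ranged from -11.9 to 0.00505 for protein-coding genes, -1.13 to 7.39 for the mitochondrial genome, -0.274 to 2.10 for unprocessed and -0.0983 to 0.0772 for processed pseudogenes, -0.771 to -0.330 for long noncoding RNA, -0.317 to -0.191 for TEC loci, -0.0325 to 0.0367 for snRNA, -0.0132 to -0.00586 for scaRNA and 0.0308 to 0.0607 for rRNA. Log2 differences with 1 library left out ran from -2.06 to 0 for Gm20521, 0 to 1.32 for Gc, -1.64 to 0 for Rps18-ps4, -1.54 to 0 for Rdh9, -0.43 to 0 for Igkv4-90, 0 to 1.08 for Fgg and -0.053 to 1.70 for Ovol2. With array weights they were -0.33 for Tekt4, -0.15 for Ovol2 and -0.10 for mt-Rnr2. Without LPD males 13 and 15 and CD male 10 they were -0.012 for Lcn2, 0.19 for Cd79a and 0 for Gc, Fgg and Igkv4-90. Gc and Fgg were also at 0, and Cyp11a1 at 0.028, with groups by the treatment field, and Gc and Fgg at 0 without those libraries. The cause of these changes was not tested, except that leaving out the 1 library with reads leaves a gene at 0. Depth limits the genes with few reads named above, and 5 males a diet limit all comparisons.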
